A study of Mus musculus with 40 samples.

Results

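Genes of arginine, nitric oxide and polyamine metabolism were followed through the LPS response of bone marrow-derived macrophages (BMDMs). They are Nos2, Gch1, Slc7a2, Ass1, Asl, Arg1, Arg2, Odc1, Srm and Sat1, and they make up 10 of the 27179 genes in the deposited expression table, each found by its symbol in a single row. The genes were chosen by process with earlier results of these libraries known, and Arg1 was also selected on its measured rlog values at 9 hr, which rise in Cpeb4-/- cells. For that reason the Arg1 values at 9 hr that involve Cpeb4-/- libraries are given as a description, with no test.

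The BMDMs came from 4 WT mice (numbers 25, 69, 87 and 88) and 4 Cpeb4-/- mice (numbers 2, 3, 55 and 62). All were adult males on a mixed C57BL/6J and 129 background. Cpeb4-/- mice carried the total knockout, so the cytoplasmic polyadenylation factor CPEB4 was missing throughout development and not only in macrophages. Cells of each mouse were left untreated (0 hr) or received 10 ng/ml of LPS, a bacterial cell wall component sensed by TLR4, for 1, 3, 6 or 9 hr, which gave 40 RNA-seq libraries, 4 per genotype and time. Each batch held 2 mice of each genotype, whereas no cage held both genotypes, so cage and genotype cannot be told apart.

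Activated mouse macrophages take up arginine and use it along competing routes. The transporter encoded by Slc7a2 brings it in, and the inducible synthase NOS2 turns it into nitric oxide and citrulline with the help of tetrahydrobiopterin, whose synthesis starts with GCH1. ASS1 and ASL rebuild arginine from citrulline. The arginases ARG1 (cytosolic) and ARG2 (mitochondrial) instead split arginine into urea and ornithine, which ODC1 turns into putrescine, SRM extends to spermidine, and SAT1 acetylates for breakdown or export. Arg1 is also a widely used marker of alternatively activated macrophages.

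The deposited values are rlog values. They are on a log2 scale, corrected for library size and pulled toward the mean of the gene where counts are low, so a fold change from a weakly expressed state is understated. They are not divided by transcript length, so levels are compared between libraries and never between genes. The table holds no read counts, so the depth of a library is not known from it. Below, a gene is called where the limma adjusted p (Benjamini-Hochberg over all genes tested) is under 0.05, and values of single libraries follow the mouse numbers above.

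Cpeb4 itself, at chr11:31870104-31935635, did not mark the genotypes at most times. At 0 hr the WT libraries read 8.13, 7.88, 7.03 and 7.81 and the knockout libraries 7.42, 7.87, 6.88 and 7.74, and only at 6 hr was it called, with a difference of -1.27 (adjusted p = 0.0011). The part of the gene that the allele lacks is not given in the sources used here, so gene-level values do not check the labels. All 8 macrophage markers passed the expression filter, and their summed level was lower in every Cpeb4-/- library than in every WT library of the same time, for example 412000 to 491000 against 517000 to 643000 (sum of 2 to the power of rlog) at 0 hr. Lyz2 made up 42.9% to 68.8% of that sum over the libraries. By their means, 2, 3, 1, 1 and 4 of the 8 were higher in Cpeb4-/- cells at 0, 1, 3, 6 and 9 hr, none of them called, with Itgam among them each time, and 1, 1, 2, 4 and 3 were called lower. Over all genes tested 0.565%, 0.938%, 1.87%, 9.92% and 3.22% were called lower at these times, and 0.741%, 0.976%, 1.81%, 6.4% and 4.69% higher. Of 8 neutrophil markers 3 passed, Camp, Ngp and Mmp8. The summed neutrophil level was 432 to 560 in Cpeb4-/- and 248 to 356 in WT libraries at 0 hr, and 367 to 433 against 242 to 287 at 6 hr, of which Mmp8, called higher in the knockout at every time, made up 82.9% to 95.9% in each library of the 5 times. Neither Camp nor Ngp was called. Over the 5 times the Camp differences were 0.16, 0.16, 0.12, 0.46 and -0.02, and those of Ngp -0.20, 0.08, 0.10, 0.16 and 0.18. Both were thus positive, like Mmp8, after 1, 3 and 6 hr of LPS, and of opposite sign before LPS and after 9 hr. Of the other lineages, 3 of 4 dendritic cell, 4 of 6 fibroblast and endothelial, 1 of 5 mast cell and basophil, 1 of 3 eosinophil, 1 of 5 T and NK cell, 1 of 4 B cell and 0 of 4 erythroid markers passed, with Hbb-bs and Hba-a1 at 0 in every library. Gata2, of the mast cell and basophil list, was 0.74 higher in Cpeb4-/- cells at 0 hr (adjusted p = 0.049), with a summed level of 18.3 to 22.8 against 12.2 to 16.9. Of the dendritic cell list Zbtb46 was 1.10 higher at 3 hr (adjusted p = 0.0068), and Xcr1 had a difference of -0.49 at 6 hr (adjusted p = 0.012). Pdgfrb was called higher in Cpeb4-/- cells at 6 and 9 hr, and the summed fibroblast and endothelial level was 680 to 809 against 507 to 543 in WT libraries at 6 hr. At 0 hr that level was 75.3 to 84.0 in Cpeb4-/- and 69.4 to 75.8 in WT libraries, so it rose with LPS in both genotypes. The part of all these markers in the genotype differences below was not tested. Values for bulk cultures cannot tell more cells of a kind from more RNA per cell.

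CPEB4 binds cytoplasmic polyadenylation elements (CPEs) in 3′ UTRs, and the destabilizing factor TTP binds AU-rich elements (AREs). The longest annotated 3′ UTR of each gene (GENCODE M21, mm10) was therefore searched, after the expression values had been seen, for the ARE pentamer ATTTA and for the CPE forms TTTTAT as well as TTTTAAT, together with the variants TTTTAAAT, also TTTTACT, then TTTTCAT, furthermore TTTTAAGT, and finally TTTTGT, where matches may overlap. An ARE was found in 8 of the 10 genes and a CPE in 6 of 10, all 6 with both. Among 11964 expressed genes 69.3% held an ARE, 77.4% a CPE and 62.1% both. The stretches below, a selection, hold the most matches of a kind in 30 bases. They come from Nos2, Slc7a2, Gch1 and Odc1, which carry both elements, and from Arg1, which carries an ARE and no CPE match. Arg2 and Sat1 also carry both and are not shown. LPS induced genes of each kind in WT cells, among them Arg1 and also Ass1, which holds neither element. Capitals mark the elements, written 5′ to 3′ on the strand of the gene.
Nos2 ARE, chr11:78960102-78960131 (+): acagatATTTAtacttcatATTTAagaaaa
Nos2 CPE, chr11:78960204-78960233 (+): taaaatacaTTTTATTTTAATcaccctgag
Slc7a2 CPE, chr8:40920056-40920085 (+): ttatctagTTTTAATTTTTATcaagtattt
Gch1 ARE, chr14:47155653-47155682 (-): gaattgtATTTAataattATTTAtatagat
Gch1 CPE, chr14:47154428-47154457 (-): agagctggtTTTTAATTTTATttttttttt
Odc1 CPE, chr12:17550933-17550962 (+): tattacatggatTTTTATtcacttttcaga
Arg1 ARE, chr10:24915319-24915348 (-): aaatgcaccagcATTTAaaatacacggtga

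The 5774-base 3′ UTR of Slc7a2 held 12 AREs and 16 CPEs, and the 502-base 3′ UTR of Nos2 held 3 and 4. Per kilobase, Nos2 was the densest of the 10 in both, with 5.98 AREs and 7.97 CPEs against medians of 1.28 and 2.43 over the expressed genes. Gch1 held 7 AREs and 3 CPEs in 1903 bases, and Sat1 held 2 and 1 in 365. Arg2 and Odc1 held 1 of each. Srm held 1 ARE and no CPE match. The 3′ UTRs of Ass1 (255 bases) and Asl (298 bases) held neither motif. A match is a description of the letters and does not show binding.

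Promoters from 250 bases before to 50 after the start were at hand in RefSeq (GRCm38.p6) for 4 of the 10 genes, Ass1, Gch1, Odc1 and Sat1. Of 7 motifs searched on both strands (NF-kB GGNNTTTCC, TATA box TATAAA, E-box CACGTG, hypoxia element ACGTG, the GAS motif TTCNNNGAA, interferon element GAAANNGAA and C/EBP motif TTGCNNAA), Ass1 held the E-box, which contains the hypoxia element on both strands, with its first base at position -36. Among all 32851 promoters 7.15% held the E-box and 19.6% the hypoxia element. Gch1 held a TATA box match at -188, as did 13.6% of promoters at any position, and Odc1 and Sat1 held none of the 7. The Ass1 stretch is shown because Ass1 is, of the 10 genes, the one whose genotypes did not overlap at the most times below.
Ass1 promoter, chr2:31470222-31470251 (+): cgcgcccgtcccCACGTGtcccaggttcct

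In WT cells Nos2 rose furthest of the 10 genes. It lies at chr11:78920787-78960226 and was level at 0 hr, with rlog values of 8.11, 8.12, 8.10 and 8.10, and reached 11.77, 11.83, 11.64 and 11.82 at 3 hr and 13.83, 14.28, 13.87 and 14.37 at 6 hr. Every 6 hr library lay above every 3 hr library, and every 3 hr library above every untreated one. The WT change at 6 hr was 5.98 (SE 0.16, adjusted p = 8.1e-18), a ratio of 63.1 on the rlog scale. At 9 hr the 4 libraries fell back to 11.91, 12.80, 11.88 and 12.73, a change of -1.76 from 6 hr (adjusted p = 2.1e-08).

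Gch1 (chr14:47153895-47189413), which supplies the cofactor of NOS2, was called from 1 hr on. It had risen by 1.19 (SE 0.07, adjusted p = 8.9e-12) after 1 hr, when Nos2 had changed by 0.08 (adjusted p = 0.77). WT libraries of Nos2 had an SD of 0.01 at 0 hr and 0.03 at 1 hr. If Nos2 counts were low there, rlog understates an early change of Nos2, so the order of the 2 genes is not settled. WT values of Gch1 were 10.38, 10.37, 10.57 and 10.59 at 0 hr and 13.10, 13.13, 13.21 and 13.22 at 6 hr. As for Nos2, 6 hr was the peak, and the 9 hr mean was 50.9% of it once the rlog values were put back on a linear scale.

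Slc7a2 (chr8:40862341-40922070) and Ass1 (chr2:31470270-31520670), the import and the recycling of arginine, rose to a plateau. WT values of Slc7a2 were 9.39, 9.49, 9.38 and 9.40 at 0 hr, 13.20, 13.55, 13.34 and 13.37 at 6 hr and 13.16, 13.50, 13.24 and 13.45 at 9 hr. WT values of Ass1 were 6.78, 6.84, 6.89 and 6.98 at 0 hr, 9.89, 9.96, 9.96 and 10.07 at 6 hr and 9.69, 10.02, 10.04 and 10.10 at 9 hr. For both genes the 6 and 9 hr libraries overlapped, and the change between them was -0.03 (adjusted p = 0.84) for Slc7a2 and -0.01 (adjusted p = 0.96) for Ass1. From 0 to 6 hr Slc7a2 rose by 3.95 (SE 0.11, adjusted p = 5.5e-18) and Ass1 by 3.10 (SE 0.10, adjusted p = 7.4e-17). Asl (chr5:130011258-130024381), which acts directly after ASS1, kept its WT group means between 10.41 and 10.74, and its change from 0 to 6 hr was -0.23 (adjusted p = 0.0026).

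Both arginases had their highest WT mean at 9 hr, the last time sampled, so no peak is shown. From 6 to 9 hr Arg1 rose by 1.51 (adjusted p = 2.1e-05), whereas Arg2 changed by 0.23 (adjusted p = 0.16). They left 0 hr at different times. Arg2 (chr12:79130788-79156301) rose from 5.42, 5.37, 5.36 and 5.21 at 0 hr to 7.41, 7.47, 7.02 and 7.43 at 1 hr in WT cells, a change of 1.99 (SE 0.13, adjusted p = 1.2e-10), and to 8.13, 8.55, 7.95 and 8.47 at 9 hr. Arg1 (chr10:24915207-24927470) was low in WT cells, between 2.93 and 4.58 in the 16 libraries of 0 to 6 hr. It rose only late, to 5.53, 5.82, 5.79 and 5.98 at 9 hr, which was 1.83 above 0 hr (SE 0.24, adjusted p = 7.5e-07).

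The polyamine genes were transient or moved little. Odc1 (chr12:17544808-17551502), the rate-limiting step of putrescine synthesis, peaked at 3 hr in WT cells with 10.85, 11.04, 10.80 and 10.66, against 9.32, 9.37, 9.45 and 9.23 at 0 hr and 9.19, 9.61, 9.29 and 9.35 at 9 hr. The 3 hr libraries lay above both other groups, which overlapped. The rise to 3 hr was 1.50 on the log2 scale (SE 0.11, adjusted p = 2.7e-10). Srm (chr4:148591513-148594619) shared the 3 hr peak at a smaller size, with a rise of 0.32 (SE 0.10, adjusted p = 0.0068), and then changed by -0.70 from 3 to 6 hr (adjusted p = 3.9e-06), which left it at -0.37 relative to 0 hr (adjusted p = 0.0019). Sat1 (chrX:155213126-155216449), which sends polyamines to breakdown, peaked at 6 hr with 13.35, 13.51, 13.43 and 13.64 against 12.56, 12.57, 12.88 and 12.80 at 0 hr, a change of 0.78 (SE 0.11, adjusted p = 9.9e-07). This direction rests on the scaling, since quantile normalization of the libraries gave -0.05 for the same change.

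**Figure D1:**
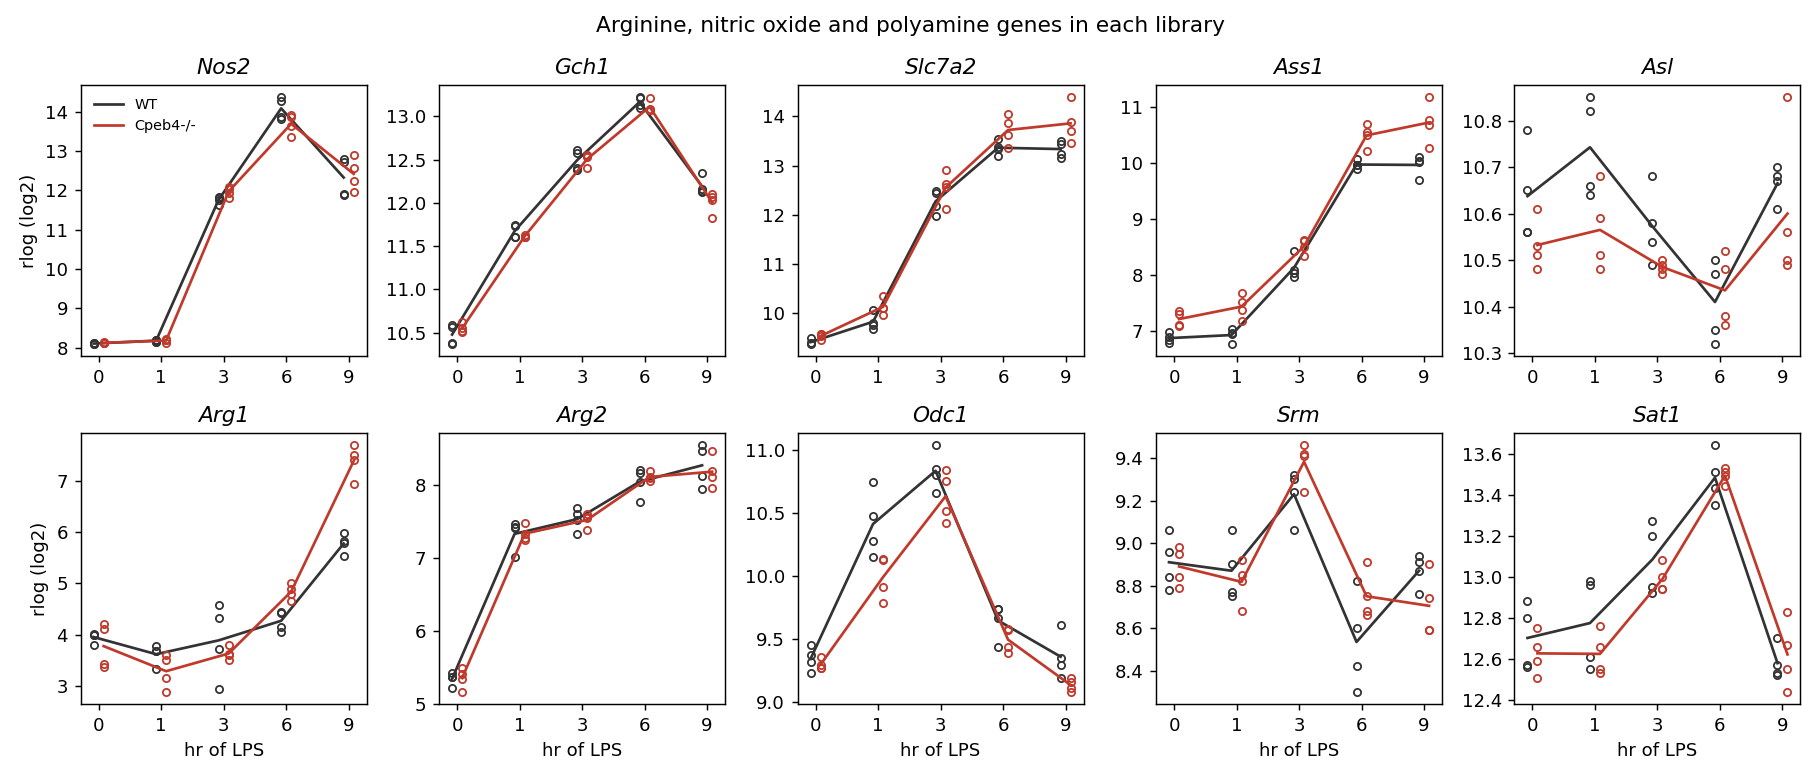
Each panel plots 1 gene, with the rlog value (log2 scale, its own range in each panel) on the y axis and hr of LPS on the x axis (evenly spaced categories). Open points are the 4 libraries of a group, lines join the group means, black is WT and red Cpeb4-/-. The lines of the genotypes run close together for Gch1 and Arg2, the red points of Ass1 sit above the black ones at 0, 1, 6 and 9 hr, and Arg1 parts at 6 and 9 hr.

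Counted over the 10 genes, 4 were called higher in WT cells at 1 hr than at 0 hr, 8 higher at 3 hr, 7 higher and 2 lower at 6 hr and 6 higher at 9 hr. Over all genes tested 33.9%, 67.8%, 77.9% and 71.5% were called in these contrasts, so from 3 hr on most genes tested moved as well. From 1 to 3 hr 7 rose and 1 fell (60.1% of all genes called), from 3 to 6 hr 6 rose and 3 fell (63.7%), and from 6 to 9 hr 3 rose and 4 fell (51.4%). The contrasts against 0 hr share the untreated libraries.

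In Cpeb4-/- cells, against 0 hr, 4 genes were called higher and 1 lower at 1 hr, 8 higher at 3 hr, 8 higher at 6 hr and, with Arg1 left out, 5 higher and 1 lower of 9 at 9 hr. The shares of all genes called were 43.8%, 71.3%, 79.1% and 72.8%. From 1 to 3 hr 7 rose (64% of all genes called), from 3 to 6 hr 7 rose and 2 fell (64.4%), and from 6 to 9 hr 1 of 9 rose and 4 fell (53.6%). At 6 hr Nos2 had risen by 5.57 (SE 0.14, adjusted p = 9.5e-19), Slc7a2 by 4.19, Ass1 by 3.28 and Gch1 by 2.56 in the knockout, and the largest of these adjusted p was 1.1e-14, for Ass1.

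**Figure D2:**
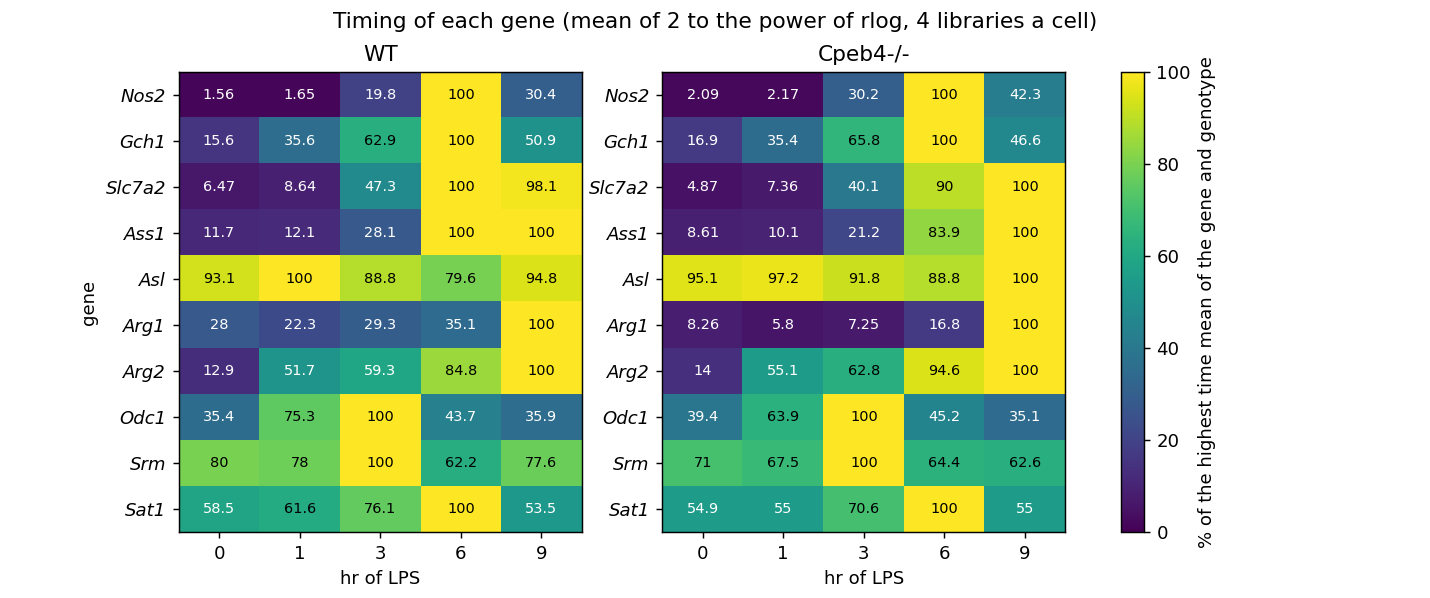
Rows are genes and columns hr of LPS, in WT (left) and Cpeb4-/- cells (right). Each cell gives the mean of 2 to the power of rlog over 4 libraries as a percent of the highest time of that gene and genotype. Nos2, Gch1 and Sat1 reach 100% at 6 hr and Odc1 and Srm at 3 hr in both genotypes, while Ass1 and Slc7a2 are highest at 6 hr in WT and at 9 hr in Cpeb4-/- cells.

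The timing plot places the peaks on a common scale. Nos2 stood at 1.56% of its WT peak at 0 hr and at 19.8% at 3 hr, against 2.09% and 30.2% of its own peak in Cpeb4-/- cells. Ass1 in the knockout was at 83.9% of its peak at 6 hr and at 100% at 9 hr, and Slc7a2 at 90% and 100%. In WT cells both genes were as high at 6 as at 9 hr, with Slc7a2 at 98.1% of its peak at 9 hr. These percentages are descriptions, and peaks that lie close to each other are within the spread of the libraries.

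The direct comparison of genotypes within a time asks how the level of these genes differs where CPEB4 is missing. None of the 10 was called by limma at 0, 1 or 3 hr, where 1.31%, 1.91% and 3.68% of all genes were. At an unadjusted p under 0.05 there were 2, 4 and 2 of the 10 at these times, against 17.6%, 35.3% and 23.4% of all genes, so these counts are near the background. At 6 hr Ass1 and Arg1 were called higher in Cpeb4-/- cells, 2 of 10 against 16.3% of all genes, and at 9 hr Ass1 alone of the 9 tested, against 7.91% of all genes. The share at 6 hr is near that of all genes. No gene of the 10 was called lower. The median difference of the 10 was 0.05 at 6 hr, against -0.02 over all genes tested.

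Of the 10 genes, Ass1 was the one whose genotypes did not overlap at the most times. Cells of the same mice were used at every time, so the times are not independent repeats. At 0 hr the WT libraries had 6.78, 6.84, 6.89 and 6.98 and the Cpeb4-/- libraries 7.30, 7.35, 7.09 and 7.11. The groups did not overlap at 0, 1, 6 and 9 hr, and at 3 hr they overlapped through WT mouse 88 (8.43) and knockout mouse 55 (8.33). Over all genes tested 10.5%, 15.7%, 20.2% and 16.9% did not overlap at 0, 1, 6 and 9 hr. How many of them did so at all these times was not counted. At 6 hr the Cpeb4-/- libraries had 10.55, 10.70, 10.21 and 10.50, all above the highest WT value of 10.07, a difference of 0.52 (SE 0.09, adjusted p = 0.002) or a ratio of 1.43. Within batches it was 0.62 and 0.42. With no filter on low expression the adjusted p of Ass1 was 0.06 at 6 hr and 0.15 at 9 hr, so neither call held there.

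At 9 hr Ass1 read 10.68, 11.17, 10.27 and 10.76 in Cpeb4-/- libraries, with the highest WT library at 10.10. The difference was 0.76 (SE 0.16, adjusted p = 0.020), a ratio of 1.69, with 1.06 in the first batch and 0.45 in the second. This call was lost when any of knockout mouse 62, WT 25, WT 69 or WT 87 was left out, with adjusted p of 0.057, 0.068, 0.056 and 0.054, and the difference then lay between 0.67 and 0.78. The earlier differences of Ass1 were 0.34 at 0 hr (adjusted p = 0.076), 0.51 at 1 hr (adjusted p = 0.054) and 0.38 at 3 hr (adjusted p = 0.073), positive in both batches each time. With the mouse as a replicate block over all 40 libraries, Ass1 passed at 1 hr (adjusted p = 0.002) and 3 hr (adjusted p = 0.021) as well. That fit called 4337 of 13118 genes at 1 hr and 1406 of 13083 at 3 hr. The interaction below tests whether the difference grew with LPS.

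Slc7a2 was not called, with a positive difference at all 5 times, which share the same mice. At 9 hr WT libraries read 13.16, 13.50, 13.24 and 13.45 and Cpeb4-/- libraries 13.47, 14.39, 13.88 and 13.70. Knockout mouse 2, at 13.47, fell inside the WT range and the other 3 lay above it. The difference was 0.53 (SE 0.17, adjusted p = 0.076), or 0.74 and 0.31 within batches. It was 0.36 at 6 hr (adjusted p = 0.063), 0.28 at 3 hr (adjusted p = 0.30), 0.30 at 1 hr (adjusted p = 0.091) and 0.12 at 0 hr (adjusted p = 0.25). With the replicate block the 9 hr difference of Slc7a2 passed (adjusted p = 0.0049), as it did without knockout mouse 2 (adjusted p = 0.006). Those fits called 2395 of 13008 and 4575 of 13005 genes at 9 hr, against 1029 of 13008 with all mice and no block.

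Arg1 was higher in Cpeb4-/- cells at 6 hr. There WT libraries read 4.43, 4.44, 4.06 and 4.15 and Cpeb4-/- libraries 4.79, 4.90, 4.66 and 5.01, with no overlap and a difference of 0.57 (SE 0.14, adjusted p = 0.014), a ratio of 1.48. Within batches the difference was 0.66 and 0.47. The call was lost with no filter on low expression (adjusted p = 0.062) and in the replicate block fit (adjusted p = 0.083). From 0 to 6 hr Arg1 changed by 1.07 in Cpeb4-/- (SE 0.20, adjusted p = 4.6e-05) and by 0.32 in WT cells (SE 0.24, adjusted p = 0.22).

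At 9 hr, the time for which Arg1 was selected, Cpeb4-/- libraries read 7.42, 7.70, 6.94 and 7.51 and WT libraries 5.53, 5.82, 5.79 and 5.98. As a description, the knockout mean of 7.39 stood 1.61 above the WT mean of 5.78, a ratio of 3.06, or 1.85 and 1.37 within batches. The libraries of 6 and 9 hr come from the same mice.

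Nos2 at 6 hr was 13.83, 14.28, 13.87 and 14.37 in WT and 13.64, 13.86, 13.92 and 13.36 in Cpeb4-/- libraries. The groups overlapped, and the difference of -0.40 (SE 0.14) did not pass (adjusted p = 0.069), with -0.49 and -0.30 within batches. It did pass without knockout mouse 55 (adjusted p = 0.041) or WT mouse 25 (adjusted p = 0.043). Before that, at 3 hr, the difference was 0.21 (adjusted p = 0.11), and at 9 hr 0.10 (adjusted p = 0.82). Followed within each mouse, the Nos2 change from 1 to 3 hr was 3.48 to 3.68 in the 4 WT mice and 3.69 to 3.91 in the 4 Cpeb4-/- mice. From 3 to 6 hr it was 2.06 to 2.55 in WT and 1.54 to 1.82 in Cpeb4-/- mice. The ranges did not overlap in either step, with the knockout higher in the first and lower in the second, as 4.7% and 9.78% of all genes did not in these steps. Both steps use the same 3 hr libraries, so a higher 3 hr value in the knockout raises its first step and lowers its second. Nos2 was not alone in this. The change of Odc1 from 1 to 3 hr was 0.29 to 0.51 in WT and 0.52 to 0.73 in Cpeb4-/- mice, also without overlap. Measured from 0 hr, the genotypes did not overlap for Gch1 at 1 and 6 hr and for Arg1 at 6 hr. The share of all genes was not counted for these changes from 0 hr. None of these within-mouse differences was tested.

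Odc1 was not called, with a negative difference at all 5 times, which share the same mice. At 1 hr the WT libraries had 10.48, 10.75, 10.28 and 10.15 and the Cpeb4-/- libraries 10.13, 9.79, 9.91 and 10.14. The groups did not overlap, with 0.01 between the nearest libraries, and the difference of -0.43 (SE 0.13) had an adjusted p of 0.083. It was -0.35 and -0.50 within batches, and it passed in the replicate block fit (adjusted p = 0.0032). That fit called 4337 of 13118 genes at 1 hr. At 0, 3, 6 and 9 hr the Odc1 difference was -0.04, -0.20, -0.15 and -0.22, with adjusted p of 0.69, 0.26, 0.17 and 0.12.

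The other 5 genes, Gch1, Asl, Arg2, Srm and Sat1, differed by -0.19 to 0.21 between genotypes over the 5 times, and none of their differences was called. The most negative was Gch1 at 9 hr, where WT libraries read 12.16, 12.34, 12.14 and 12.12 and Cpeb4-/- libraries 12.07, 12.10, 12.03 and 11.82, with an adjusted p of 0.14. The most positive was Srm at 6 hr, with an adjusted p of 0.18. In the replicate block fit Asl at 1 hr (adjusted p = 0.024) and Gch1 at 9 hr (adjusted p = 0.039) passed, both lower in Cpeb4-/- cells. That fit called 4337 of 13118 genes at 1 hr and 2395 of 13008 at 9 hr.

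Genotypes without overlap were counted for each time. They were Nos2 and Ass1 at 0 hr, Ass1 and Odc1 at 1 hr, none at 3 hr, Arg1 and Ass1 at 6 hr, and Ass1, Gch1 and Odc1 of 9 genes at 9 hr. Over all genes tested 10.5%, 15.7%, 13.6%, 20.2% and 16.9% did not overlap. For Nos2 at 0 hr the nearest libraries of the genotypes both read 8.12, so the gap is smaller than the second decimal.

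**Figure D3:**
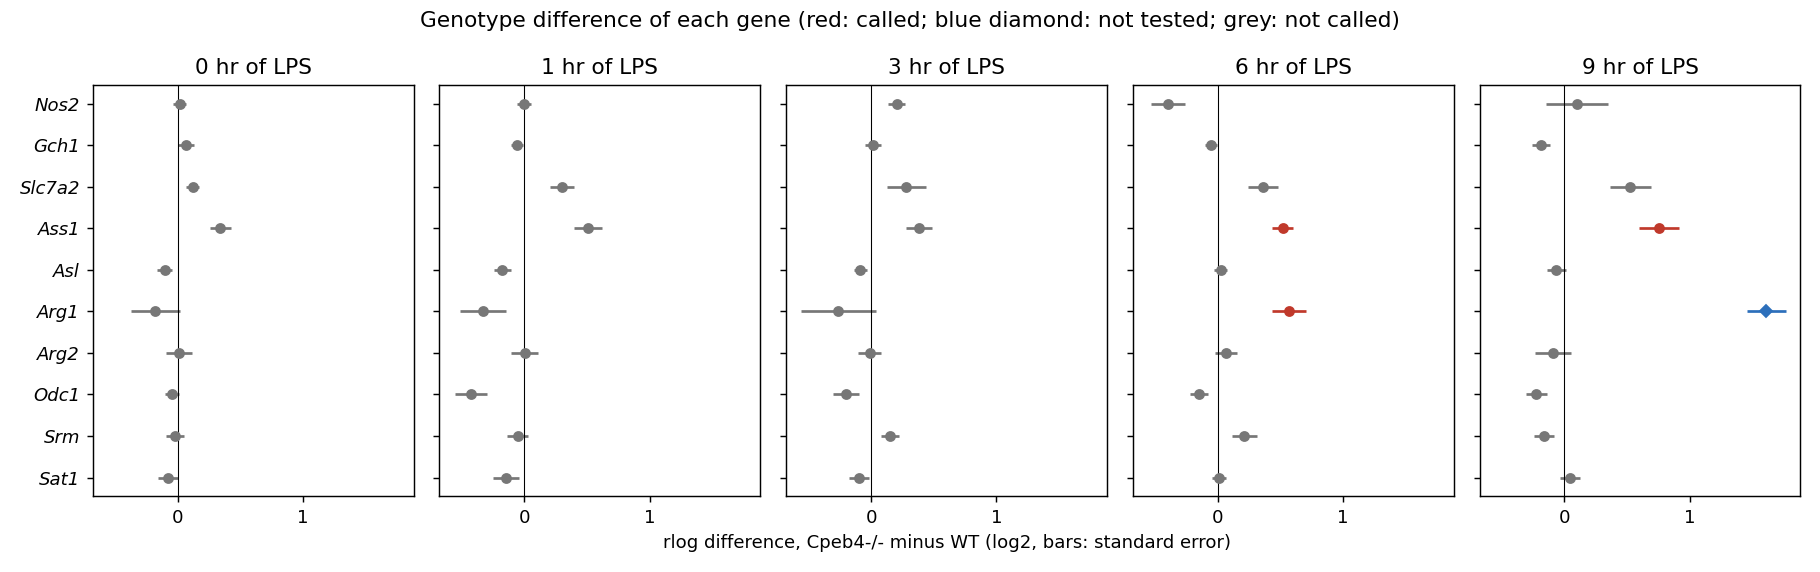
Points are the rlog difference, Cpeb4-/- minus WT (log2 scale, x axis), of each gene (y axis) at 0, 1, 3, 6 and 9 hr of LPS, with bars of 1 standard error and 4 libraries per genotype. Red points were called, grey points were not, and the blue diamond is Arg1 at 9 hr, which was not tested. Ass1 and Slc7a2 lie to the right of 0 at every time, and Arg1 moves from -0.33 at 1 hr to 0.57 at 6 hr.

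Whether the LPS response itself differed between genotypes was asked with the interaction of genotype and time. None of the 10 genes was called at 1, 3 or 6 hr, nor any of 9 at 9 hr, and over all genes 0.00763%, 0.206%, 2.94% and 1.76% were. At an unadjusted p under 0.05 limma gave 1, 0, 1 and 2 of them, against 1.57%, 5.03%, 15.1% and 12% of all genes. For Ass1 the interaction was 0.18 at 6 hr (SE 0.18, adjusted p = 0.70) and 0.41 at 9 hr (SE 0.18, adjusted p = 0.32), so a growth of its difference with LPS was not shown by this test. This fit does not pair the libraries of the same mouse. With the mouse as a fixed replicate block, Ass1 at 9 hr passed (adjusted p = 0.019), where 654 of 13103 genes were called. At 6 hr the interaction was 0.75 for Arg1 (SE 0.32, adjusted p = 0.23) and -0.41 for Nos2 (SE 0.23, adjusted p = 0.40). For Slc7a2 it was 0.40 at 9 hr (adjusted p = 0.48), and for Odc1 -0.11 at 6 hr (adjusted p = 0.78).

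The difference between the rlog values of Nos2 and Arg1 within a library shows the 2 arginine users side by side. Since neither is scaled by length, only its change between libraries can be read. Untreated WT cells gave 4.16 ± 0.10 (SD, n = 4), WT cells after 6 hr gave 9.82 ± 0.34, and after 9 hr the value was back at 6.54 ± 0.39. The Cpeb4-/- values at these 3 times were 4.35 ± 0.43, 8.85 ± 0.38 and 5.03 ± 0.49. At 3 hr the libraries overlapped, with 7.19 to 8.89 in WT and 8.15 to 8.54 in Cpeb4-/- cells. At 6 hr the WT libraries spanned 9.40 to 10.23 and the knockout libraries 8.35 to 9.25, and at 9 hr 6.09 to 6.97 and 4.55 to 5.64. The 9 hr gap contains the Arg1 value used to choose the gene, and no test was run on this measure.

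**Figure D4:**
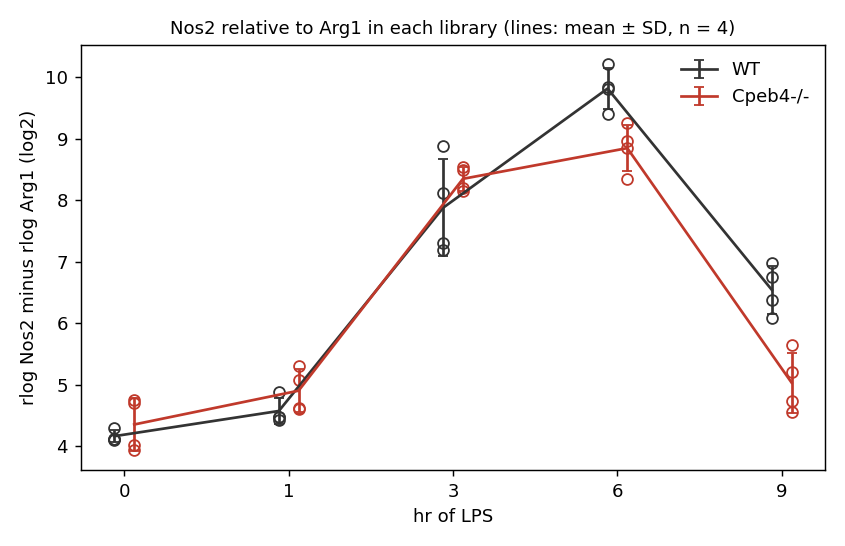
The y axis is rlog of Nos2 minus rlog of Arg1 in the same library (log2 scale) and the x axis hr of LPS. Open points are libraries, and lines with bars give mean ± SD of 4 libraries, black for WT and red for Cpeb4-/-. The genotypes overlap up to 3 hr and lie apart at 6 hr (9.82 against 8.85) and 9 hr (6.54 against 5.03).

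Over the 40 libraries the genes most like Nos2 by Pearson's r were Ddx58 (0.995), Herc6 (0.994), Naa25 (0.994), Cmtr1 (0.993) and Trim30d (0.993). Those most like Arg1 were Gys1 (0.926), Slamf6 (0.911), Mgarp (0.909), Chpf2 (0.905) and Pgm2 (0.904). Among the 10 genes, Nos2 had an r of 0.96 with Slc7a2, 0.90 with Ass1 and 0.88 with Gch1, and 0.49 with Arg1. All these points share mice and the time course, so the values are descriptions. They also include the Cpeb4-/- libraries on whose high values Arg1 was selected. Every r with Arg1, that of Nos2 among them, therefore rests in part on the selection. How these r values and the Arg1 ranking change without those libraries was not tested.

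Further genes of the same pathways were read from lists written with earlier results of these data known. Of 15 genes of arginine transport and the urea cycle 10 passed the filter, and at 6 hr of LPS 1 was higher and 3 lower in Cpeb4-/- cells, against 6.4% and 9.92% of all genes, with a list median of -0.06 against -0.02 over all genes. Slc7a6 was 0.27 higher (adjusted p = 0.014). Lower were Gamt and Gatm, which make creatine from arginine, by -0.40 (adjusted p = 0.0015) and -0.24 (adjusted p = 0.031), and Slc7a7, a y+L transporter subunit, by -0.23 (adjusted p = 0.044). Slc7a7 had been higher at 0 hr by 0.49 (adjusted p = 0.013) and at 1 hr by 0.52 (adjusted p = 0.0043), and its interaction was -0.72 at 6 hr (adjusted p = 5.3e-05). The hepatic urea cycle genes Cps1 and Otc did not pass the filter.

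The partners of NOS2 and GCH1 were read in the same way. Of 11 genes of nitric oxide synthases and tetrahydrobiopterin 7 passed the filter in WT cells, 6 of them were lower at 6 hr than at 0 hr and none was higher, where 39.2% of all genes were lower and 38.7% higher. Spr, which completes tetrahydrobiopterin, fell by 1.22 (adjusted p = 9.3e-10). Nos1 and Nos3 did not pass it there. No gene of this list was called between genotypes by limma at any time, with 2 of 8, 4 of 7, 3 of 7, 3 of 7 and 1 of 8 at an unadjusted p under 0.05, where 17.6%, 35.3%, 23.4%, 30.3% and 26.9% of all genes were.

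Of 18 polyamine genes 17 passed the filter, and 4 rose and 11 fell from 0 to 6 hr in WT cells, against 38.7% and 39.2% of all genes. Azin1, an inhibitor of the antizymes that target ODC1, rose by 0.78 (adjusted p = 6.2e-09), and the spermine oxidase gene Smox by 0.40 (adjusted p = 1.1e-05). Between genotypes 1 of the 17 was called at 1 hr and 1 at 6 hr, against 1.91% and 16.3% of all genes. They were Slc18b1 at 1 hr (0.69 higher, adjusted p = 0.021) and Atp13a2, a lysosomal polyamine exporter, at 6 hr (-0.22, adjusted p = 0.0025). The 9 hr interaction called 1 of the 17, against 1.76% of all genes. Its value was positive, as for 0.992% of all genes. Of 7 genes of ornithine and proline metabolism, 6 fell from 0 to 6 hr in WT cells (39.2% of all genes). Between genotypes 1, Aldh18a1, was higher in Cpeb4-/- cells at 6 hr (0.33, adjusted p = 0.037), as were 6.4% of all genes.

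Other markers of alternative activation were listed beside Arg1. Of 16 such genes 14 passed the filter, and at 6 hr 4 were called, where 16.3% of all genes were and 1294 of those 2129 calls were lower. Lower in Cpeb4-/- cells were 3, the IL-4 receptor gene Il4ra (-0.48, adjusted p = 0.00024), the mannose receptor gene Mrc1 (-0.44, adjusted p = 0.0024) and Pparg (-0.22, adjusted p = 0.041). The chemokine gene Ccl24 was 0.30 higher (adjusted p = 0.014). At 9 hr Il4ra and Mrc1 were again lower, by -0.40 (adjusted p = 0.0092) and -0.24 (adjusted p = 0.024), and none was higher. Of all genes 3.22% were called lower and 4.69% higher at 9 hr. Retnla, another common marker, stayed at the floor of the table with a mean of -2.40 in both genotypes at 9 hr.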

How the data were processed

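RNA-seq libraries of BMDMs from 4 WT and 4 Cpeb4-/- male mice at 5 times of LPS (40 libraries) were used. The authors made poly(A) libraries, aligned the reads with STAR (2.3.0e, per the submitters' processing notes) to mm10, counted reads per gene with featureCounts and applied the rlog transformation of DESeq2. The deposited values are therefore on a log2 scale, scaled for library size and shrunken where counts are low. Read counts were not used here and the depth per library is unknown from the table, so the precision comes from the spread between mice. No value column was left unused (0).

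Groups, mice and batches were taken from the labels and the study's sample descriptions. Genotypes within a time (8 libraries), times within a genotype (20 libraries) and the interaction (40 libraries) were each fitted across the whole table in R 4.3.3, using lmFit and trended eBayes of limma 3.58.1. Genes entered a fit when their rlog averaged 2.32 or more (5 on the linear scale), and p-values were adjusted over all genes tested by Benjamini-Hochberg. The scripts were tested on simulated data. Libraries of the same mouse shared deviations from their group means (median r = 0.29 over 80 pairs of times, 68 of them over 0.1, lowest -0.19; -0.09 between different mice), and they come from the same animal, so the replicate block pairs them. The alternatives were no filter, eBayes without trend, quantile normalization, each mouse left out, batch as a covariate and the replicate block (duplicateCorrelation with statmod 1.5.0 for genotypes, mouse as a fixed effect for times and interaction).

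The 10 genes and the lists were chosen with earlier results of these data known. Named genes are the 10, Cpeb4, up to 4 genes per list with the largest genotype difference among those called at the time with most calls, and the 5 genes most like Nos2 and Arg1. Others (Azin1, Smox, Spr, Nos1, Nos3, Cps1, Otc, Retnla, the marker genes and the single called genes of a list) were chosen after their values were seen. The 3′ UTR search was also added then. Locations and promoters are those of RefSeq GRCm38.p6.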

Additional observations from a re-analysis of the deposited data

Results flagged for a closer look

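In 6 of 100 groups of 4 libraries (10 genes, 2 genotypes, 5 times) a single library stood apart from the other 3 by Dixon's test, which chance does in about 1 group in 20. Gch1 gave 3 of them. At 9 hr WT mouse 69 read 12.34 against 12.12 to 12.16, at 3 hr knockout mouse 2 read 12.40 against 12.53 to 12.55, and at 6 hr knockout mouse 3 read 13.21 against 13.07 to 13.09. Arg2 at 1 hr was 7.02 in WT mouse 87 and 7.41 to 7.47 in the others. Slc7a2 at 0 hr was 9.49 in WT mouse 69 and 9.38 to 9.40 in the others. Nos2 at 0 hr was 8.14 in knockout mouse 62 and 8.12 in the other 3.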

How the results depend on the processing

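Leaving out 1 mouse at a time moved the number of the 10 genes called between genotypes to 0 to 2 at 1 hr and at 3 hr, 2 to 4 at 6 hr and 0 to 6 at 9 hr (6 without knockout mouse 2, 0 without knockout 62 or WT 25, 69 or 87), and that of the Cpeb4-/- change from 0 to 1 hr from 5 to 3 to 4. The number of all genes called between genotypes then ranged from 44 to 163 at 0 hr, 40 to 2440 at 1 hr (highest without WT 69), 76 to 2584 at 3 hr (without WT 88), 1347 to 2331 at 6 hr and 387 to 4575 at 9 hr (without knockout 2), and that of the interaction from 0 to 2, 5 to 21, 84 to 391 and 89 to 226 at 1, 3, 6 and 9 hr. The uncalled Nos2 difference changed sign, between -0.012 and 0.017 at 1 hr, -0.061 and 0.255 at 9 hr, and -0.081 and 0.234 for the 9 hr interaction.

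With the replicate block, 3, 1, 1 and 3 of the 10 genes were called between genotypes at 1, 3, 6 and 9 hr and 1 in the 9 hr interaction. Over all genes the block gave 430, 4337, 1406 and 2395 genotype calls at 0, 1, 3 and 9 hr (171, 251, 481 and 1029 without it) and 72, 1032 and 654 interaction calls at 3, 6 and 9 hr (27, 385 and 231 without it), and it moved no other count by over 1.5 times. With no filter 0 of the 10 were called at 6 and 9 hr, and 43, 54, 90, 868 and 369 of all genes at the 5 times, with 8 interaction calls at 1 hr. Batch as a covariate gave 146, 194 and 1781 calls at 1, 3 and 9 hr, and eBayes without trend 230 at 3 hr. Quantile normalization gave 227 interaction calls at 6 hr and turned the WT rise of Sat1 at 6 hr to -0.049. It also moved the calls at 6 hr from 835 higher of 2129 to 1025 of 2020, those of the 6 hr interaction from 118 of 385 to 102 of 227, and those from 0 to 1 hr from 2264 of 4443 to 1878 of 4969 in WT and from 3121 of 5748 to 2441 of 6424 in Cpeb4-/- cells. The cause of these shifts was not tested. Ass1 at 6 hr stayed positive under all alternatives and was called under all but no filter.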
